A study of Mus musculus with 2 samples.

Results

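Zic1, Zic2 and Zic5 are zinc finger transcription factors of the Zic family, and their transcripts were followed through a pooled single-cell library of mouse pluripotent and differentiating cells. They were taken by symbol from the gene rows of the deposited count matrix, and they make 3 of its 33696 genes (Zic1 ENSMUSG00000032368, Zic2 ENSMUSG00000061524, Zic5 ENSMUSG00000041703). The study described day 2 embryoid bodies, aggregates of differentiating cells, and the untreated epiblast stem cells they were made from, which are pluripotent cells of the primed, post-implantation type. Both samples came from the same mouse cell line, named Delmix, each as 1 sample, for which 10000 cells were aimed at. No mutation or transgene was named in the labels, and a single line with 1 sample of each kind gives no spread between cultures. The counts lie in 1 pooled matrix and its cell tags, CMO311 and CMO312, match no sample label, so no value below belongs to either sample and embryoid bodies could not be set against stem cells.

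Zic proteins bind DNA through a domain related to that of the Gli factors of Hedgehog signalling, and several of them are needed for the dorsal neural tube, the neural crest and the cerebellum. Loss of Zic2 function causes holoprosencephaly, a failure of the forebrain to divide, and Zic1 and its neighbour Zic4 act in the cerebellum and the dorsal midline. In pluripotent cells Zic2 is known as a factor that binds enhancers, with reported links to the NuRD complex, and Zic2 and Zic5 belong to the genes of the primed epiblast.

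The genes lie in pairs in the genome. By RefSeq's order of genes, Zic1 is next to Zic4 on chromosome 9, and Zic2 and Zic5 lie on chromosome 14 with the long non-coding RNA 2610035F20Rik between them. RefSeq promoter sequence (assembly GRCm38.p6) was at hand for 2 of the 3 members, Zic1 at chr9:91365769-91366018 and Zic5 at chr14:122465659-122465908, both on the minus strand. They are shown because the 2 genes had different patterns among the cells. Each line gives the 250 bases before the annotated start, 5′ to 3′, with capitals marking matches on either strand to the GC box GGGCGG, the CCAAT box CCAAT or the E-box CACGTG.
Zic1: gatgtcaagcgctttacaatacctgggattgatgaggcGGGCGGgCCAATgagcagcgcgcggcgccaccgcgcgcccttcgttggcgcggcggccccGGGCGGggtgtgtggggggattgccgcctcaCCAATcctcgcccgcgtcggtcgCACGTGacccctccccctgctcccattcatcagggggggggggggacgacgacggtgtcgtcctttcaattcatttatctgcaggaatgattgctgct
Zic5: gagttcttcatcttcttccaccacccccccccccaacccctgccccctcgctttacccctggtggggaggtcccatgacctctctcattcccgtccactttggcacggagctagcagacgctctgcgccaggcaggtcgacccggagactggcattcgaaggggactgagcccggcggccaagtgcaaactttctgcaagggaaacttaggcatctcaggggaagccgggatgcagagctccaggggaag
The Zic1 window held 2 GC boxes, 2 CCAAT boxes and 1 E-box, with 66% G and C, against a mean of 53.2% over all promoters of the table. The Zic5 window, with 62.4% G and C, held none of these and, like that of Zic1, neither the TATA box TATAAA nor the octamer ATGCAAAT. Among 32851 promoter windows of this length, 32.7% held a GC box, 33.8% a CCAAT box, 6.02% this E-box, 12.4% the TATA box and 1.60% the octamer. No 2 of these motifs overlapped in the Zic1 window. These matches describe letters and not bound sites.

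The analysis used the 16841 of 21593 called cells (78.0%) in which 1000 genes or more were seen and mitochondrial UMIs (unique molecule counts) made up 10% or less. The median kept cell had 6473 UMIs and 2682 genes, and kept cells spanned 1265 to 34748 UMIs. They fell into 12 clusters, found without the Zic genes among the genes used, so that no cluster was defined by a Zic level. Cluster 1 was naive pluripotency-like by its markers, cluster 5 simple epithelium and surface ectoderm-like, cluster 7 primitive streak and mesoderm-like, cluster 8 fibroblast or feeder-like and cluster 10 two-cell-like. The others are called by number and leading genes. Cluster 2 was led by Car4, Pim2 and Fgf5, cluster 3 by Anks1b and Ptprt, cluster 4 by Meis2 and Fgf8, and cluster 9 by Rhox9 and Rhox6. Cluster 6 was shallow (2733 UMIs per cell at the median, 8.08% of them mitochondrial), and the small clusters 11 (81 cells, led by the macrophage genes Lyz2 and C1qa) and 12 (29 cells, led by the neuronal genes Nrxn3 and Dcx) were below the 100 cells asked of a named cluster. Levels are CPM, the UMIs of a gene scaled to 1000000 UMIs summed over the cells of a group, with exact 95% Poisson intervals in brackets. Intervals cover counting error only, no p-value was computed because the matrix is 1 sample, and with summed levels more cells carrying a transcript and more transcript per cell cannot be told apart.

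The 3 genes were scarce transcripts in this library. Zic1 had 192 UMIs in all kept cells, 1.59 CPM (1.37 to 1.83), and was the 13773rd most abundant gene. Zic2 had 2814 UMIs, 23.2 CPM (22.4 to 24.1). Zic5 had 5190 UMIs, 42.9 CPM (41.7 to 44.0). Most cells that held any Zic transcript held a single molecule, so a cell without one cannot be read as a cell that lacks the gene. Zic1 was seen in 135 cells (0.802%), of which 103 held 1 UMI and 18 held 3 or more, with at most 6 in a cell. Zic2 was seen in 2282 cells (13.6%) and Zic5 in 3910 cells (23.2%). In 72027 cell-free droplets of 150 to 300 UMIs the levels were 1.09 CPM for Zic1 (17 UMIs), 12.6 CPM for Zic2 (197 UMIs) and 39.8 CPM for Zic5 (621 UMIs), so free RNA carried all 3 transcripts.

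Among clusters of at least 100 cells, Zic2 was highest in the Meis2 and Fgf8 cells of cluster 4 and lowest in the Rhox9 and Rhox6 cells of cluster 9. Its level in cluster 4 was 51.5 CPM (47.6 to 55.7). Next came cluster 3 with 31.5 CPM (29.1 to 34.0) and the streak and mesoderm-like cells with 30.5 CPM (25.7 to 35.9). It was 20.4 CPM (18.8 to 22.1) in the Car4 and Pim2 cells of cluster 2 and 16.1 CPM (14.8 to 17.5) in naive-like cells. In that order cluster 4 stood clear of cluster 3, clusters 3 and 7 overlapped, and cluster 7 stood clear of cluster 2. From cluster 2 downwards, through the shallow cluster 6 (18.4 CPM), naive-like cells, epithelium-like cells (14.7 CPM), two-cell-like cells (12.7 CPM) and fibroblast-like cells (9.23 CPM), each interval overlapped with that of its neighbour. Cluster 9 lay below all of these at 2.50 CPM (0.919 to 5.45) from 6 UMIs in 375 cells, where 1.03 UMIs would come from free RNA if each cell held as much as a cell-free droplet.

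**Figure D1:**
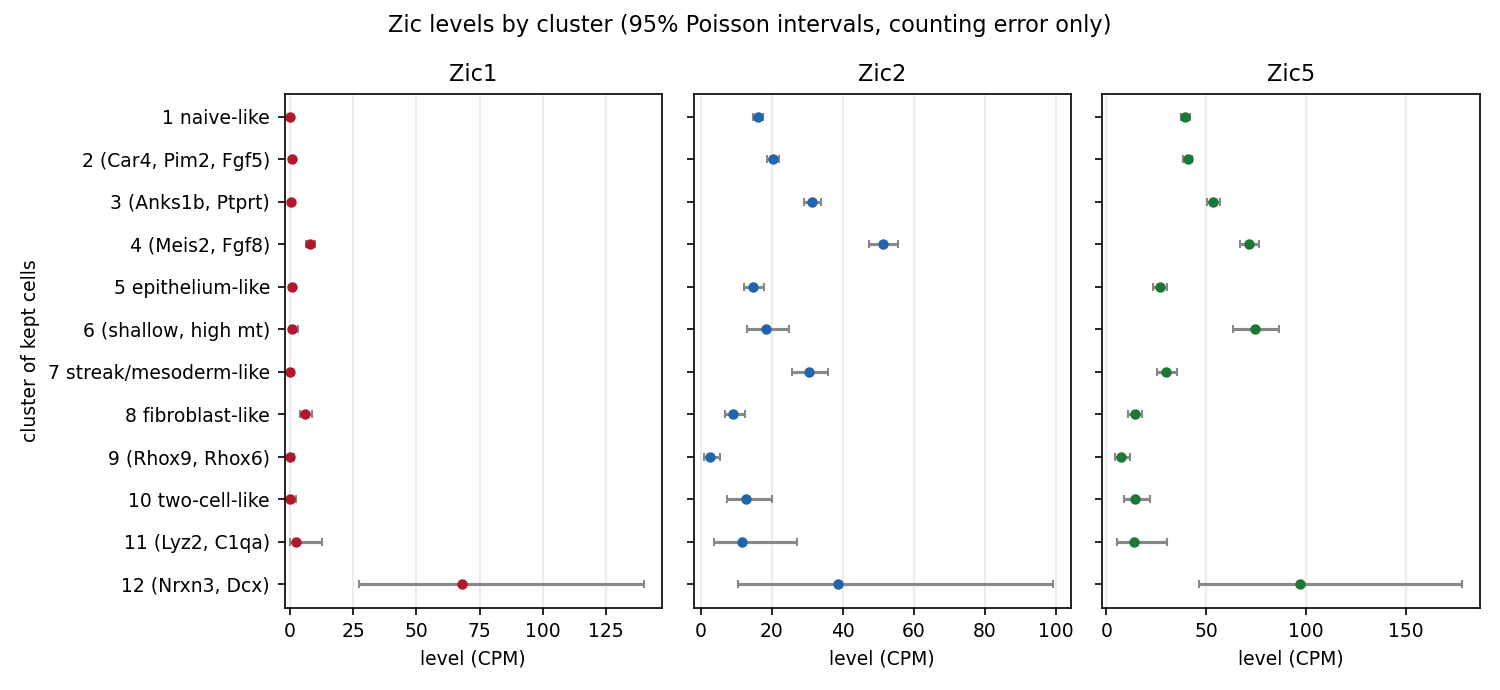
Levels of Zic1, Zic2 and Zic5 in CPM (horizontal axis, a separate scale for each gene) in each of the 12 clusters (vertical axis). Points are summed levels and bars are exact 95% Poisson intervals; cluster 4 reached 51.5 CPM for Zic2 and 71.5 CPM for Zic5, cluster 9 was low for all 3 genes, and the wide bars of cluster 12 rest on 29 cells.

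Among clusters of at least 100 cells, Zic5 was highest in clusters 6 and 4. Cluster 6 reached 74.4 CPM (63.5 to 86.6), and cluster 4 overlapped with it at 71.5 CPM (66.8 to 76.4). In cluster 6 the log2 ratio of Zic5 to the other cells was 0.82. Genes reaching 20 CPM on either side of that comparison had a median log2 fold of 0.45. Cluster 3 followed at 53.6 CPM (50.4 to 56.8), then cluster 2 at 40.7 CPM and naive-like cells at 39.6 CPM, which overlapped with each other. Streak and mesoderm-like cells, at 29.9 CPM (25.1 to 35.2), were below naive-like cells for this gene, the reverse of their order for Zic2. Epithelium-like cells had 26.6 CPM, and fibroblast-like and two-cell-like cells had 14.2 and 14.1 CPM. Cluster 9 had 7.51 CPM (4.45 to 11.9), from 18 UMIs where 3.23 would come from free RNA at the level of a cell-free droplet. The 29 cells of cluster 12 held 10 Zic5 UMIs, 97.1 CPM (46.5 to 178).

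Zic1 was concentrated in few cells, with 51.0% of its UMIs in cluster 4, which made up 9.88% of the cells. Cluster 4 had 98 Zic1 UMIs, 8.09 CPM (6.57 to 9.86), and fibroblast-like cells had 30 UMIs, 6.16 CPM (4.15 to 8.79), with overlapping intervals. All other clusters of at least 100 cells were at or below 1.04 CPM. Naive-like cells held 5 Zic1 UMIs in 4669 cells, 0.143 CPM (0.0465 to 0.334). Clusters 9 and 10 held none, which allows up to 1.25 and 2.12 CPM. The 27 UMIs of cluster 2 (0.906 CPM) were spread over 27 cells. The 29 cells of cluster 12 held 7 Zic1 UMIs in 4 cells, 67.9 CPM (27.3 to 140.0), and also 4 UMIs of Zic4.

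Set against all other kept cells, a gene was called in a cluster where the fold, with 1 CPM added to both levels, was at least 2 and the higher level at least 20 CPM. Zic2 and Zic5 reached that level on at least 1 side of each comparison, whereas Zic1 did so in none of at least 100 cells and could not be called there. In cluster 4, 1 of the 2 callable members was called higher, where 3.52% of all genes that could be called were higher. Zic2 had 51.5 CPM there and 20.1 CPM in the other cells, a ratio of 2.56 (2.34 to 2.80). Zic5 had 71.5 CPM in cluster 4 and 39.7 CPM in the other cells, a ratio of 1.80 (1.67 to 1.94), under the fold asked for. For Zic1 the levels were 8.09 and 0.862 CPM, a ratio of 9.38 (7.0 to 12.6). At a finer clustering (Leiden resolution 1.0) this last contrast turned to a ratio of 0.350. There the cluster matched to cluster 4 had 1300 cells, and 110 Zic1 UMIs lay in another cluster of 297 cells, of which 50.5% came from cluster 4. Cluster 4 had a median of 6328.5 UMIs per cell, 15.7% called doublets and median tag counts of 2444.5 (CMO311) and 323 (CMO312), and the part of these in the Zic levels was not tested.

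Among clusters of at least 100 cells, low calls were found in 3. In fibroblast-like cells 2 of 2 members were called lower, where 12.6% of all genes were. Zic2 had 9.23 CPM there and 23.8 CPM in the other cells, and Zic5 had 14.2 and 44.1 CPM. Of the fibroblast-like cells 22.4% were called doublets, and without these the levels there were 5.35 CPM for Zic2 and 7.55 CPM for Zic5. In cluster 9 also 2 of 2 were called lower, where 6.97% of all genes were, with ratios of 0.106 (0.0388 to 0.231) for Zic2 and 0.172 (0.102 to 0.273) for Zic5. Two-cell-like cells had a Zic5 call only, at 14.1 CPM in these cells and 43.2 CPM in the others, where 5.21% of all genes were lower. Zic2, at 12.7 CPM in two-cell-like cells and 23.4 CPM in the others, stood at 7.98 CPM there without called doublets. Of the 2 small clusters, cluster 11 passed the same fold for low Zic5 (13.9 CPM there and 43.0 CPM in the other cells), where 22.4% of all genes were lower. Cluster 12 passed it for high Zic1 and Zic5, where 22.2% of all genes were higher. Zic1, at 1.53 CPM outside cluster 12, could be called there only as higher.

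The naive-like cells stood lower for the genes of this family to unequal degrees. Zic1 had 0.143 CPM in naive-like cells and 2.17 CPM in the other cells, a ratio of 0.0659 (0.0212 to 0.157). Zic2 had 16.1 and 26.1 CPM, a ratio of 0.617 (0.561 to 0.677). Zic5 had 39.6 and 44.2 CPM, a ratio of 0.895 (0.841 to 0.952) that turned to 1.05 under a stricter cell filter and to 1.04 at the finer clustering. Neither Zic2 nor Zic5 passed the call in cluster 1, where 5.74% of all genes were called lower and 2.12% higher. Against naive-like cells alone, cluster 4 had 3.20 times the Zic2 level (2.85 to 3.59) and 1.81 times the Zic5 level (1.66 to 1.97), and cluster 7 had 1.89 times the Zic2 level (1.57 to 2.28) and 0.755 times the Zic5 level (0.630 to 0.899).

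A graded view came from counting naive transcripts in each cell. Each cell was reduced at random to 2000 of its UMIs (294 cells with fewer were dropped) and grouped by the UMIs of 15 naive pluripotency genes such as Zfp42, Esrrb and Klf2. From 0, 1, 2, 3 to 4, 5 to 7 to 8 or more naive UMIs, the Zic2 level in thinned cells was 45.3, 33.1, 23.3, 27.2, 17.1 and 15 CPM. Over the same steps the Zic5 level was 58.2, 55.2, 51.0, 37.6, 39.5 and 34.9 CPM. Zic1 was at 8.70 CPM in cells with no naive UMI and at 0.150 CPM in those with 8 or more. For Zic2 and Zic5 the order of neighbouring bins was not strict, and cells with 8 or more naive UMIs had the lowest level of each of the 3 genes. Over these bins the median depth before thinning ranged from 5914 to 6857 UMIs and the median CMO311 count from 974 to 1500, and the part of these in the trend was not tested.

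Within clusters 1 to 3 alone, the Zic2 level over these steps was 59.2, 32.8, 27.2, 27.8, 17.5 and 14.8 CPM. The first of these bins held 355 cells and the last 5781. The Zic5 level in clusters 1 to 3 was 74.6, 57.9, 51.3, 39.0, 40.0 and 36.7 CPM, and Zic1 had at most 3 UMIs in a bin. Thus Zic2 and Zic5 were higher in cells with few naive transcripts also when clusters 1 to 3 were pooled. The 16 naive genes summed to 8038, 2849 and 2411 CPM in clusters 1, 2 and 3, so the bins sort cells by cluster too. A trend over the bins inside a single cluster was not tested. Thinned naive-like cells with Esrrb over those without had ratios of 0.959 (0.578 to 1.52) for Zic2 and 0.960 (0.708 to 1.28) for Zic5. For Fgf5 they were 2.56 (0.923 to 5.73) and 1.31 (0.563 to 2.62), and each interval takes in 1. With only cluster 4 left out, Zic2 over the naive bins was 38.6, 26.3, 20.7, 26.4, 16.1 and 14.8 CPM. Zic5 was then 42.7 (34.0 to 52.8), 46.8, 47.7, 37.0, 38.2 and 35.0 CPM (31.8 to 38.3), so its first and last intervals overlapped. Over the bins of clusters 1 to 3 the median depth before thinning was between 6173 and 6873 UMIs. The median mitochondrial share there was between 3.11 and 3.18%, and the part of both in the trend was not tested. Among primed genes, Fgf5 over the same 6 bins of clusters 1 to 3 had 49.3, 50.9, 39.6, 41.9, 33.5 and 17.8 CPM, whereas Nanog, a core pluripotency factor, was highest in the last bin at 109.8 CPM.

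**Figure D2:**
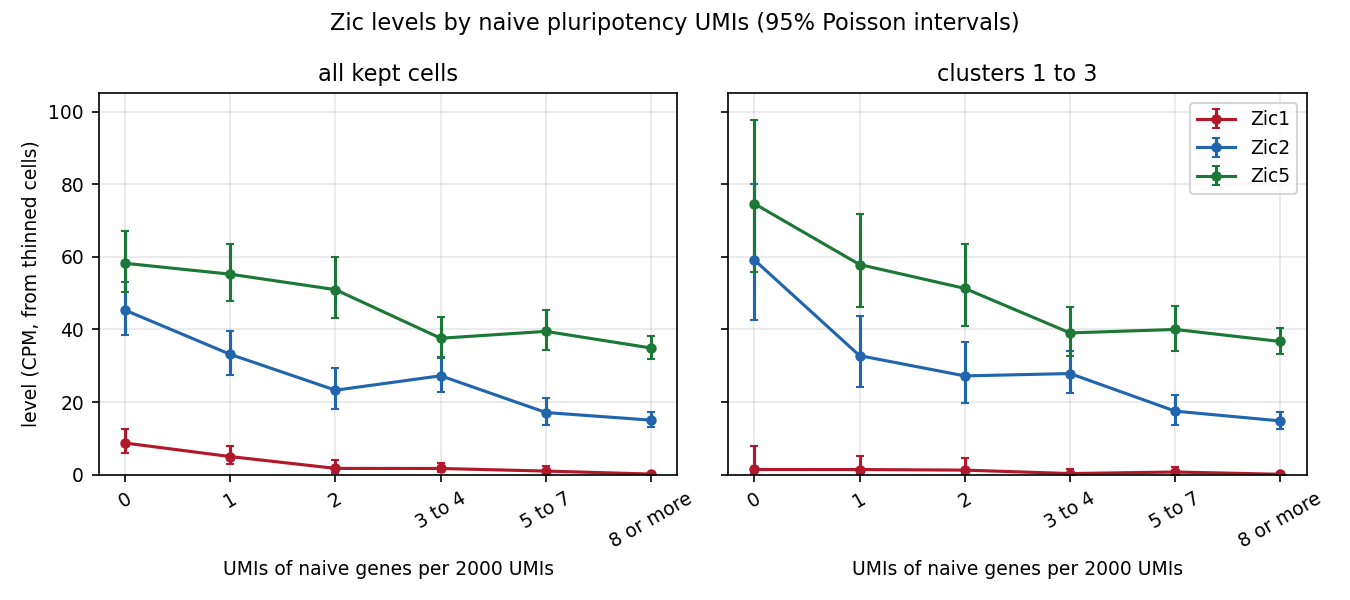
Levels of Zic1, Zic2 and Zic5 in CPM (vertical axis, from cells thinned to 2000 UMIs) by the number of UMIs of 15 naive pluripotency genes in the thinned cell (horizontal axis), in all kept cells (left) and in clusters 1 to 3 (right). Bars are exact 95% Poisson intervals; in clusters 1 to 3 Zic2 stood at 59.2 CPM with no naive UMI and at 14.8 CPM with 8 or more, and Zic5 at 74.6 and 36.7 CPM.

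The balance of Zic2 to Zic5, neighbours on chromosome 14, differed between clusters. The measure was the number of Zic2 UMIs per Zic5 UMI, which is compared here between groups of cells and not read as a difference in abundance between the genes. Streak and mesoderm-like cells had 1.02 (0.804 to 1.30), cluster 4 had 0.721 (0.649 to 0.800), cluster 3 had 0.587 (0.532 to 0.648), cluster 2 had 0.501 (0.454 to 0.553) and naive-like cells had 0.407 (0.369 to 0.450). Cluster 6 was lowest at 0.247 (0.171 to 0.349). Its neighbours on that scale were the cell-free droplets, at 0.317 (0.269 to 0.373), and the 4308 called cells left out for over 10% mitochondrial UMIs, at 0.263 (0.206 to 0.333). The intervals of clusters 7 and 1 did not overlap. The RNA that lies between the 2 genes, 2610035F20Rik, had 123 UMIs in all kept cells, 1.02 CPM (0.844 to 1.21), and 1.57 CPM (0.945 to 2.45) in cluster 4.

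**Figure D3:**
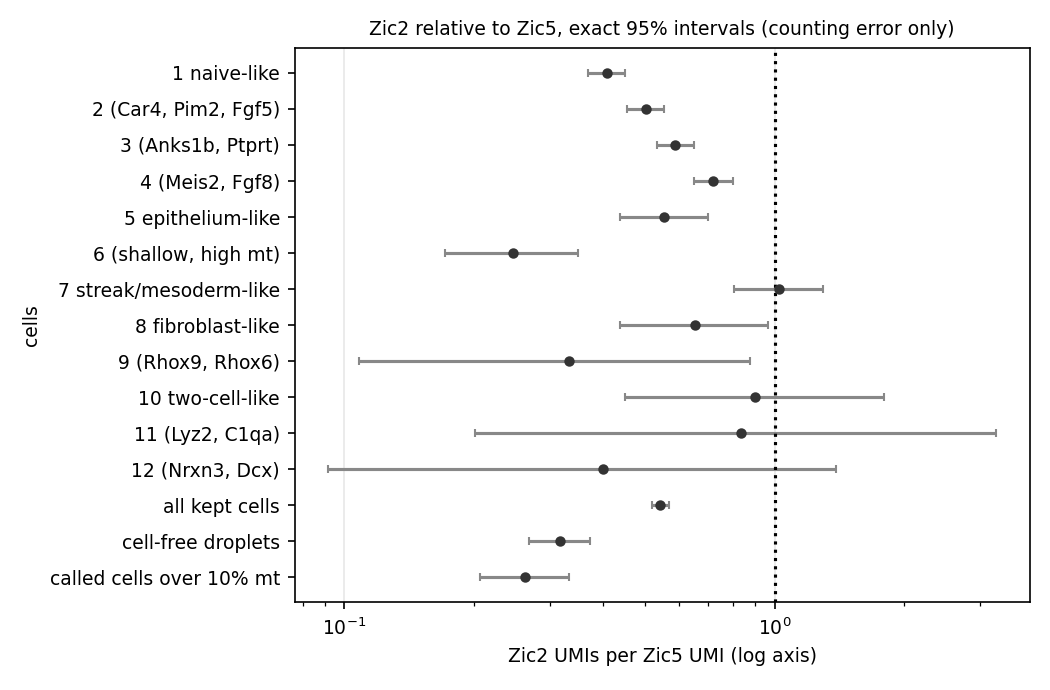
Zic2 UMIs per Zic5 UMI (horizontal log axis) in each cluster, in all kept cells, in cell-free droplets and in called cells over the mitochondrial maximum (vertical axis), with exact 95% intervals and a dotted line at 1. Streak and mesoderm-like cells lay at 1.02 and naive-like cells at 0.407.

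Shares of cells with a Zic2 UMI, at equal depth, placed the same clusters at the top and the bottom. With each cell thinned to 2000 UMIs, Zic2 was seen in 9.48% of cluster 4 cells (exact binomial interval 8.11 to 11%), 6.01% of streak and mesoderm-like cells, 5.92% of cluster 3, 3.72% of cluster 2, 2.83% of naive-like cells and 0.804% of cluster 9. Before thinning these shares were 29.0% in cluster 4, 16.7% in streak and mesoderm-like cells, 18.6% in cluster 3, 11.9% in cluster 2, 10.4% in naive-like cells and 1.6% in cluster 9. Macrophage-gene cells of cluster 11, which would be taken to lack the gene, held Zic2 in 1 of 80 thinned cells (1.25%, interval 0.0316 to 6.77%). That interval takes in the shares of all of these clusters but cluster 4, and the median depth before thinning was 4066 UMIs in cluster 11 and 6362 UMIs in cluster 4. Zic5 was seen in 13.4% of thinned cluster 4 cells, 9.90% of cluster 3, 7.01% of naive-like cells and 1.71% of fibroblast-like cells, and in 0 of 80 cells of cluster 11, which allows a share of up to 3.75%.

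In clusters 1 and 2, Zic2 and Zic5 were found together in single cells more often than their shares alone would give. The numbers were closer to that in clusters 3 and 4, and no interval was computed for them. After thinning, 24 naive-like cells held both, where 9.19 would hold both if the 2 were independent. In cluster 2 the numbers were 28 and 11 cells, and in cluster 3 they were 22 and 15.9 cells. Cluster 4 had 24 such cells where 20.9 would be given by independence. Zic1 was found with Zic2 in 3 thinned cells over the whole library, where 2.24 would be given by independence. These counts are a description of 1 library, and cells of a cluster also share its makeup.

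Zic1 was the member that differed most between the parts of cluster 4. At a finer clustering (Leiden resolution 2.0), 55.6% of cluster 4 lay in a larger part of 940 cells in all and 30.2% in a smaller part of 509 cells, a pair chosen after the Zic levels were seen. Among genes of at least 50 CPM, the smaller part was led over the larger by Mir100hg, Crabp1 (a retinoic acid binding protein), Mir99ahg, Cdh6 and Tmem132c. Fabp7, a fatty acid binding protein of neural progenitors, was chosen after its values were seen. The larger part was led over the smaller by Fgf5, Cdh13, Car2, Apela and Dnmt3b, of which Fgf5 and Dnmt3b are genes of the primed epiblast. Both carried Fgf8 and T.

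Zic1 had 96 UMIs in 51 cells of the smaller part, 28.8 CPM (23.4 to 35.2), and 2 UMIs in the larger part, 0.327 CPM (0.0396 to 1.18). Zic1 was called higher in the smaller part, where 2.8% of all genes were, with a ratio of 88.1 (23.7 to 738). It passed 20 CPM only through the smaller part, so it could be called only as higher. Zic2 was lower there, with 41.1 CPM in the smaller and 59.7 CPM in the larger part, a ratio of 0.689 (0.562 to 0.840). Zic5 was also lower, with 50.8 and 88.4 CPM, a ratio of 0.574 (0.480 to 0.684). Neither of these 2 ratios passed the fold of a call, and 0.242% of all genes were called lower. Zic4, the neighbour of Zic1, had 12 UMIs in the smaller part and 0 in the larger, which allows up to 0.491 CPM. Called doublets made up 13% of the smaller and 3.19% of the larger part, and without them the ratios were 95 for Zic1, 0.735 for Zic2 and 0.561 for Zic5. Median depth was 5914 UMIs in the smaller and 6086.5 in the larger part, and the median CMO311 count was 3202 and 2078.

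The genes that went with this split came from the neural, dorsal, caudal and naive lists, among others. They serve as a description of both parts, since the clustering used such genes. Of all callable genes, 2.8% were called higher and 0.242% lower in the smaller part. Of 13 neuroectoderm markers, 5 could be called and 3 were higher in the smaller part, with a median log2 fold of 1.60 over the callable members against 0.04 over all callable genes. Fabp7 had 178 CPM in the smaller and 14.1 CPM in the larger part, Sox1 had 64.0 and 20.5 CPM, and Irx3 had 77.5 and 12.1 CPM. Of 12 neural border and neural crest genes, 2 could be called and both were higher (median 3.48). Both, like Fabp7 and Irx3, were under 20 CPM in the larger part, so they could be called only as higher. Pax3, a factor of the dorsal neural tube, had 49.6 CPM in the smaller part and 0 UMIs in the larger (up to 0.491 CPM), and Sox9 had 36.6 and 14.2 CPM. Foxd3, a neural crest factor under the level of a call, had 3.60 CPM in the smaller and 14.6 CPM in the larger part, a ratio of 0.247 (0.123 to 0.454).

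Of 10 caudal epiblast genes, 7 could be called and 3 were higher in the smaller part (median 0.45), where 2.8% of all genes were. Hoxb1 had 47.4 CPM in the smaller and 17.5 CPM in the larger part, and could thus be called only as higher. Meis2 had 725 and 302 CPM. Meis1 was the third, with a smaller-over-larger ratio of 2.37 (2.13 to 2.64).

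Among 14 genes of the Hedgehog pathway, 8 could be called and 3 were higher in the smaller part (median 0.42), where 2.8% of all genes were. Gli3, which acts mainly as a repressor, had 229 CPM in the smaller and 93.8 CPM in the larger part, and the co-receptors Boc and Cdon had 21.9 and 54.1 CPM in the smaller and 1.64 and 19.6 CPM in the larger. Boc and Cdon, under 20 CPM in the larger part, could be called only as higher. Gli2 had 85.9 CPM in the smaller and 86.1 CPM in the larger part. The hindbrain genes Hoxb2, at 118 CPM in the smaller and 22.9 CPM in the larger part, and Hoxa2, at 40.8 and 10.3 CPM, and the dorsal neural gene Msx3, at 15 and 0.327 CPM, were added after their values were seen. Of 16 primed epiblast genes, all callable, 2 were lower in the smaller part (median -0.52), where 0.242% of all genes were. These were Fgf5 with 18.9 and 68.9 CPM and Dnmt3b with 196 and 403 CPM. Of 16 naive genes 6 could be called and 3 were higher in the smaller part (median 1.09), where 2.8% of all genes were. Zfp42 had 97.6 CPM in the smaller and 33.7 CPM in the larger part.

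**Figure D4:**
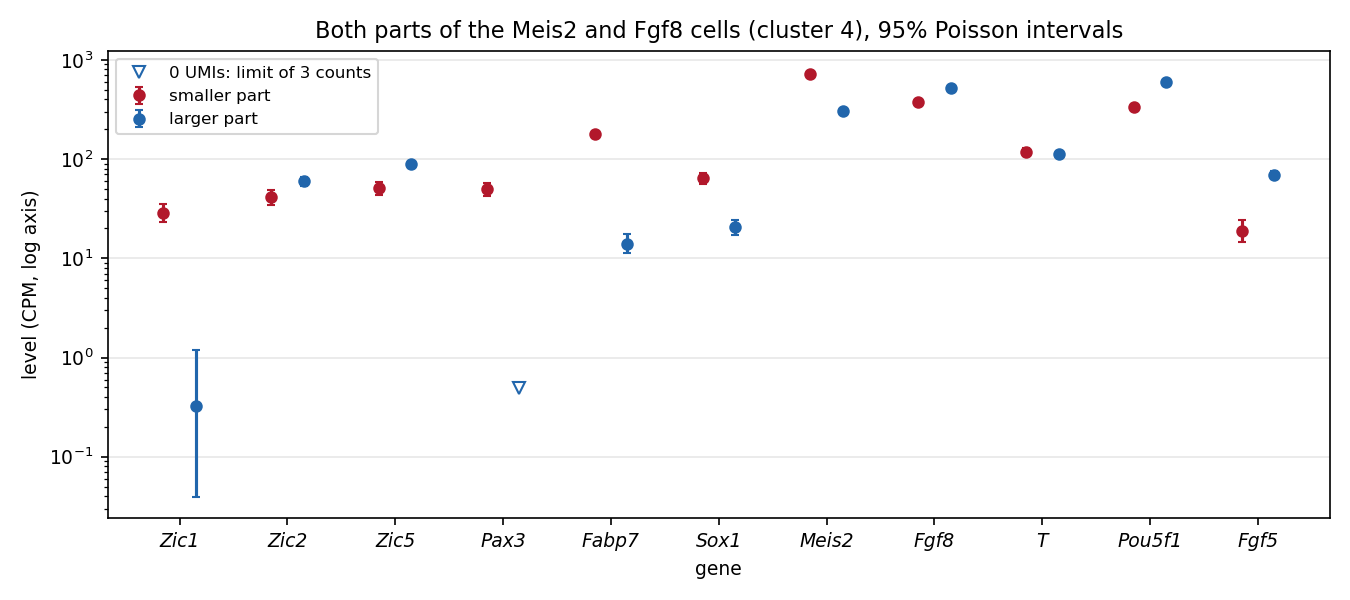
Levels in CPM (vertical log axis) of the Zic genes and of 8 other genes (horizontal axis) in the smaller part (red) and the larger part (blue) of cluster 4, with exact 95% Poisson intervals. Zic1 lay at 28.8 CPM in the smaller and at 0.327 CPM in the larger part, Zic2 and Zic5 lay lower in the smaller part, and the open triangle marks the limit that 0 Pax3 UMIs allow in the larger part.

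Inside the smaller part, the 51 cells with a Zic1 UMI differed from the other 458 in the genes they held. Pax3 was seen in 52.9% of the Zic1 cells (38.5 to 67.1%) and 14.0% of the others (10.9 to 17.5%). Fabp7 was seen in 76.5% and 34.3%, Msx3 in 31.4% and 4.37%, and Zic4 in 13.7% and 0.873%. Fgf8 went the other way, with a UMI in 5.88% of the Zic1 cells (1.23 to 16.2%) and 64.4% of the others (59.8 to 68.8%). T, the streak factor Brachyury, was seen in 5.88% and 32.3%, and Pou5f1, a core pluripotency factor, in 35.3% and 72.9%. Meis2 was close in both, at 88.2% and 90.8%, as was Zic2 at 21.6% and 22.3%. The Zic1 cells were shallower, with a median of 5088 UMIs against 5991 in the others, and the part of depth in these shares was not tested.

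The same separation was present over cluster 4 as a whole at equal depth, in largely the same Zic1 cells. Cluster 4 held 53 cells with a Zic1 UMI and its smaller part 51, so this view is no separate support. Among cluster 4 cells thinned to 2000 UMIs, the 807 with an Fgf8 UMI held 0 Zic1 UMIs, which allows up to 1.86 CPM. The 838 without one held 34, a level of 20.3 CPM (14.0 to 28.3). Cells with a Fabp7 UMI had 73.9 CPM of Zic1 and those without had 4.32 CPM, a ratio of 17.1 (8.17 to 37.2). Cells with Meis2 had 17.2 CPM and those without 4.49 CPM. Zic5 had 63.8 CPM in cells with Fgf8 and 83.5 CPM in cells without, a ratio of 0.764 (0.587 to 0.992). Zic2 had 53.3 and 46.5 CPM, a ratio of 1.14 (0.833 to 1.58) whose interval takes in 1.

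In the streak and mesoderm-like cells, Zic2 was compared between cells with and without each of several genes. Thinned cells with Mesp1, a factor of nascent mesoderm, had 64.0 CPM of Zic2 and those without had 27.7 CPM, a ratio of 2.31 (1.05 to 4.69). The 64 cells with Kdr, a receptor of blood vessel progenitors, held 0 Zic2 UMIs, which allows up to 23.4 CPM, and the other 618 held 44 UMIs, 35.6 CPM (25.9 to 47.8). The 78 cells with Hand1, a factor of lateral mesoderm, held 1 Zic2 UMI, 6.41 CPM (0.162 to 35.7), and those without had 35.6 CPM, a ratio of 0.180 (0.00446 to 1.06). For the streak genes T and Mixl1 the ratios were 0.928 (0.392 to 1.97) and 1.67 (0.737 to 3.46), and for Pou5f1 the ratio was 1.67 (0.818 to 3.25). The intervals of Hand1, T, Mixl1 and Pou5f1 take in 1. Zic5 had 34.9 CPM with Mesp1 and 22.7 CPM without, a ratio of 1.54 (0.520 to 3.81). Cluster 7 held 20% called doublets and median tag counts of 871.5 (CMO311) and 2538 (CMO312), and the part of these was not tested.

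The Zic1 UMIs of the fibroblast-like cells lay in few cells. They were 30 UMIs in 22 cells, 3 of them called doublets, and 26 UMIs remained without these. Free RNA at the level of a cell-free droplet would give 0.140 UMIs. The collagen gene Col3a1 was seen in 19 of the 22 cells and in 85.3% of the other 571 fibroblast-like cells. Fabp7 was seen in 3 of the 22 and in 3.85% of the others, and Pou5f1 in 6 of the 22 and in 42.4% of the others. At the finer clustering, 535 cells that all lay in this cluster held 21 of these UMIs, 4.50 CPM of Zic1 (2.79 to 6.88). Zic4 had 6 UMIs in this cluster.

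Genes of pathways and complexes tied to the Zic factors are described by their counts in whole clusters. In cluster 4, 2 of 7 callable Hedgehog genes (of 14) were higher, Gli2 and Gas1, with a median log2 fold of 0.82 against 0.04 for all callable genes, of which 3.52% were called higher. Gas1 had 22.0 CPM over all kept cells with cluster 4 included and was under 20 CPM in the other cells. It could thus be called in cluster 4 only as higher. In naive-like cells 3 of 7 were lower, Gli3, Smo and Gas1 (median -0.95 against -0.06), where 5.74% of all genes were. Gas1, at 2.60 CPM in naive-like cells, could be called there only as lower. Of 12 NuRD genes, all callable, 0 were called in either direction in cluster 4 or in naive-like cells. Of the anterior neural genes (12, of which 4 could be called), Sox1, Sox3 and Sp8 were higher in cluster 4, again where 3.52% of all genes were. Over all kept cells these had 4.98, 16.2 and 7.53 CPM. They thus passed 20 CPM only through cluster 4 and could be called only as higher. The fourth gene that could be called, Otx2, was not called and had 32.1 and 38.8 CPM in the smaller and larger parts of cluster 4 and 67.6 CPM over all kept cells. Of 12 neural border genes 4 could be called in cluster 7, and all 4, Msx1, Msx2, Snai1 and Sox9, were higher there, where 6% of all genes were called higher. Over all kept cells Msx1, Msx2 and Sox9 were at 5.28, 5.62 and 5.30 CPM, under the 20 CPM of a call. Snai1 was also under 20 CPM in the cells outside cluster 7. All 4 could be called only through their level in cluster 7, so their direction was fixed by the filter. Zic1 was at 1 UMI in that cluster.

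**Figure D5:**
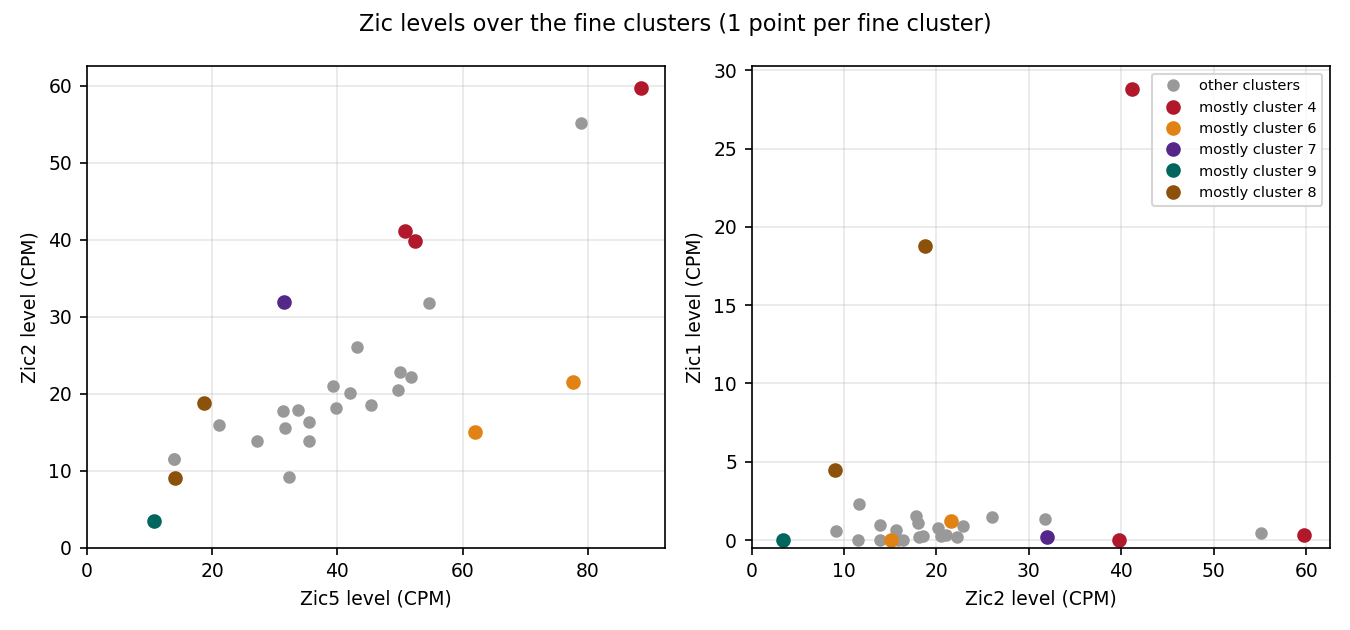
Levels in CPM over 29 fine clusters of at least 50 cells, with Zic2 against Zic5 (left) and Zic1 against Zic2 (right); each point is 1 fine cluster and colours mark clusters that hold most of its cells. Zic2 and Zic5 rise together over many fine clusters, with those mostly of clusters 6 and 7 among the exceptions. The fine cluster mostly of cluster 7 had 31.9 CPM of Zic2 and 31.5 CPM of Zic5. Zic1 is high in 1 fine cluster of cluster 4, at 28.8 CPM.

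Over 29 fine clusters of at least 50 cells, Pearson's r of log2(CPM + 1) was 0.78 between Zic2 and Zic5, 0.14 between Zic1 and Zic2 and -0.13 between Zic1 and Zic5. These points come from 1 library and share its depth and free RNA, and they are not replicates. A fine cluster of 577 cells, of which 92.4% lay in cluster 3, came close to the larger part of cluster 4, with 55.1 CPM of Zic2 and 78.9 CPM of Zic5, yet 31.1 CPM of Meis2. The highest Zic1 level of a fine cluster outside cluster 4 was 18.8 CPM (8.60 to 35.7), from 9 UMIs in a fine cluster of 106 cells, 54.7% of them in cluster 8. These 106 cells had 531 CPM of Meis2 and 265 CPM of T. The fine cluster of 535 cells that all lay in cluster 8 had 95.4 and 5.79 CPM. Among 9921 genes, the patterns most like that of Zic1 were those of Mir99ahg (r = 0.85), Ndnf (0.85), Ptn (0.84), Zfp503 (0.83) and Sncaip (0.83). For Zic2 they were Lhpp (0.85), Rbm15b (0.83), Cpsf2 (0.83), Khdrbs1 (0.81) and Nacc1 (0.81), and for Zic5 they were Myo10 (0.88), Slc6a15 (0.86), Trmt61b (0.83), Nacc1 (0.83) and Zfp280c (0.83). These names were not stable, since at resolution 1.5 (22 fine clusters) 1 of the 5 was kept for each gene, and by Spearman's rank correlation 0 of 5 were kept for Zic1, 1 for Zic2 and 1 for Zic5.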

How the data were processed

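Transcripts of single cells were captured in droplets with 10x 3' kits of version 3.1, per the labels. Per the file headers, Cell Ranger 8.0.1 made the deposited matrix, whose values are raw UMI counts of each gene in each barcode. The submitters' processing notes also name Seurat, with no version. In the deposited table of tags, assignment probabilities are a fraction and the count of a tag is on a log10 scale, which for CMO311 equalled log10 of the matrix count plus 1 in 100% of cells (within 1e-06). The sources used here do not give the authors' genome build. Of the called cells 21465 (99.4%) carried no tag assignment.

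After scaling each cell to 10000 counts and taking logarithms, Leiden clusters (scanpy 1.11.5, leidenalg 0.10.2, resolution 0.5) were found on 2000 variable genes, 30 components and 15 neighbours, without the Zic and cell cycle genes. Scrublet called 2145 kept cells doublets (12.7%), which were left in. A cluster took a name with at least 100 cells, at least 3 markers 2-fold higher at 20 CPM or more, and at least 1 of them among its 10 leading genes, with over 2 times the count of any other list there. The leading genes of a cluster were those of highest fold at 50 CPM or more. Of the marker genes, 11 that were known to lead clusters in earlier results did not count for names. The ratio of 2 levels has an exact interval conditional on the sum of both counts. A count of 0 was read as allowing 3 counts. No test was made, because all cells form 1 pooled sample.

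The members and gene lists were chosen with earlier results of these data known. Likeness was ranked by the 5 highest correlations over fine clusters (resolution 2.0) among genes reaching 20 CPM in 1 of them, leaving out Zic genes and provisional, mitochondrial and ribosomal names. Up to 4 members per list were to be named by the largest ratio between clusters; the members named beside list counts and the splits by Fgf8, Fabp7, Mesp1 and other genes were chosen after their values were seen. Alternatives were another cell filter (500 genes and 20%, or 2000 genes and 5% mitochondrial UMIs), no doublets, resolution 1.0, Zic genes among the variable genes, CPM without mitochondrial and ribosomal protein genes, the mean CPM of single cells, subtraction of free RNA, thinning to 4000 UMIs and no thinning. Likeness to Zic2 and 4-fold changes in cluster 1 were tested on simulated data, and 200 of 200 planted genes were recovered in each. The count of 1 list is not reported here.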

Additional observations from a re-analysis of the deposited data

Results flagged for a closer look

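Zic transcripts were also present in called cells that the cell filter left out and that no comparison above used for levels. The 4308 cells with over 10% mitochondrial UMIs held 90 Zic2 UMIs (14.8 CPM) and 342 Zic5 UMIs (56.2 CPM, interval 50.4 to 62.5 CPM), with 1 Zic1 UMI. Scaled to 1000000 UMIs of non-mitochondrial genes, Zic5 stood at 68.1 in these cells and at 44.3 in the kept cells. Their median depth was 1216 UMIs and their median mitochondrial share 17.1%, and the part of these in the levels was not tested. The 444 cells with under 1000 genes and at most 10% mitochondrial UMIs held 7 Zic2 UMIs and 11 Zic5 UMIs (25.4 CPM, interval 12.7 to 45.5 CPM), and no Zic1 UMI.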

How the results depend on the processing

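Of 48 recomputed log2 ratios (the 3 genes in naive-like cells and in cluster 4, under 8 alternatives, those of cluster 4 chosen after seeing the data), 39 stayed within their main interval and 3 turned direction. Zic5 in naive-like cells, at -0.16, turned to 0.071 with the strict cell filter and 0.058 at resolution 1.0, and Zic1 in cluster 4, at 3.23, turned to -1.52 at resolution 1.0, where 110 Zic1 UMIs lay in another cluster, 50.5% of whose 297 cells came from cluster 4. The others moved without turning. Zic2 in naive-like cells, at -0.70, went to -0.48 with the strict filter, -0.56 at resolution 1.0 and -0.83 with Zic genes among the variable genes, which also took Zic5 there to -0.27. Without called doublets, cluster 4 went to 1.5 for Zic2 and 0.97 for Zic5; the causes of these moves were not tested. Among clusters of at least 100 cells, cluster 4 was highest for Zic2 under all 8 alternatives, and Zic5 was highest in cluster 4 or 6. Under the lenient filter clusters 2 and 3 shared 1 match of 5174 cells, and 19.1% of the 3218 cells matched to cluster 6 came from it. Under the strict filter cluster 6 was not found again, and with Zic genes among the variable genes cluster 9 was not separate. Of 240 levels by cluster 191 stayed within their interval, as did 19 of 60 shares at another thinning depth or with none. Zic2 per Zic5 stayed within its interval in 77 of 80 values. The parts of cluster 4 kept their directions for the 3 genes without doublets. No paired analysis was possible because the matrix pools its cells and each group has 1 sample. Depth limits Zic1 most, with 192 UMIs.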
